A study of Rattus norvegicus with 6 samples.

Results

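This section covers 10 genes of secreted Wnt proteins and secreted Wnt antagonists in neonatal rat cardiac fibroblasts (NRCFs), which were isolated from the hearts of rats at most 3 days old and cultured. The 10 genes were taken by symbol from the 21857 symbols of the count files, and each was present. The Wnt ligands were Wnt2, Wnt4, Wnt5a, Wnt5b and Wnt11, the secreted Frizzled-related proteins were Sfrp1, Sfrp2 and Sfrp4, and the Dickkopf proteins were Dkk2 and Dkk3. Gene expression was measured by RNA-seq in 3 libraries of the Vector group, which the genotype labels call WT, and in 3 libraries labelled FTO overexpression. Cells of both groups had been transfected, with an empty plasmid in the Vector group and with a plasmid carrying rat FTO, an eraser of the m6A mark on RNA, in the other. The design names Sprague-Dawley rats, whereas the strain label reads "Noway". The plasmid acts by transient transfection and not through a heritable allele, and the sources used here do not give the cultures or litters behind each library, so that p-values measure the spread between these libraries, which may be technical. The comparison asks which RNAs of this family differ in fibroblasts given the FTO plasmid.

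Wnt proteins are lipid-modified secreted ligands that bind Frizzled receptors and co-receptors of the LRP, ROR and RYK families. In the canonical branch, LRP5 and LRP6 take part and β-catenin accumulates and acts with TCF/LEF factors on target genes, whereas the non-canonical branches, typical of Wnt5a, act on cell polarity, movement and calcium. Secreted Frizzled-related proteins bind Wnt ligands outside the cell, and Dickkopf proteins bind LRP co-receptors, although Dkk3 is a divergent member of that family. In the heart, Wnt signalling is known for its part in development and in the response of fibroblasts to injury.

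The libraries held 13178952 to 17857999 counted reads each, and 3 counts in a library were worth 0.168 to 0.227 CPM (reads scaled to library size with TMM normalisation). Fto itself was at 87.8, 89.6 and 87.4 CPM in the Vector libraries and at 93.2, 90.8 and 92.9 CPM in the FTO-labelled libraries. Every library labelled FTO was above every Vector library, but the log2 fold change was only 0.06 (95% interval −0.04 to 0.17, adjusted p = 0.239 in edgeR's quasi-likelihood test), so that these samples are named by their label (FTO-labelled) throughout. Of the 12941 genes tested, 65.9% had an adjusted p-value under 0.05, 33.2% with a higher and 32.8% with a lower level in the FTO-labelled group. The study's own cut-off (p-value under 0.05 and log2 fold change of 1 or more in either direction) was passed by 19.6% of the genes, and groups without overlap in CPM were found for 70.3%.

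Sfrp2 rose and Dkk3 fell past the study's threshold, Wnt4 and Sfrp1 rose and Wnt5a fell by smaller amounts, and the differences of Wnt5b and Sfrp4 did not pass the test. Wnt2, Wnt11 and Dkk2 had too few counts to be tested. Thus 5 of the 7 tested members (71.4%, beside 65.9% of all genes tested) passed. Of these 5, 3 were higher and 2 lower, where 33.2% of all genes tested were called higher and 32.8% lower. The study's threshold was passed by 2 of the 7, beside 19.6% of all genes tested. The same 5 of the 7 tested members, and Dkk2 among the untested, had groups without overlap, beside 70.3% of all genes tested. Sfrp2 was retained for testing through the FTO-labelled libraries alone, so these shares describe the members that could be tested and not all 10. In bulk RNA such as this, fewer cells of a type and less RNA per cell cannot be told apart.

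**Figure D1:**
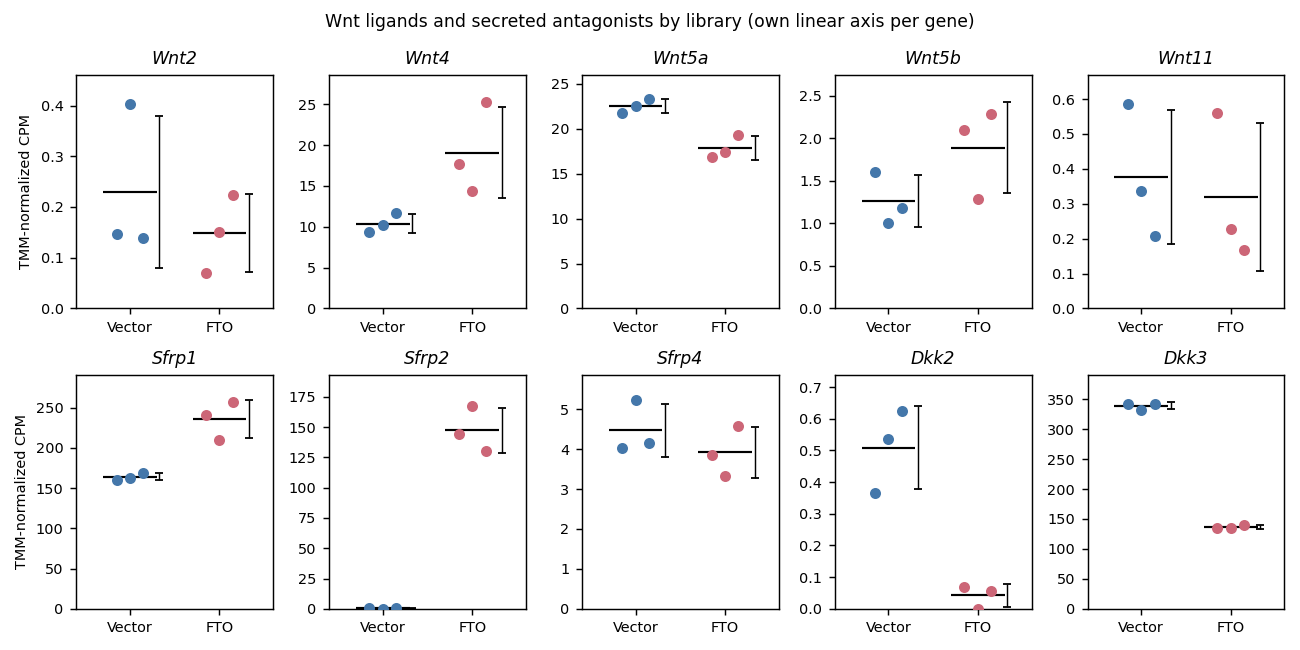
Level of each of the 10 genes in each library, in TMM-normalised CPM on a separate linear axis for each gene; points are libraries, the horizontal line is the mean of 3 libraries and the bar beside it is the SD. Sfrp2 lies near 0 in the Vector libraries and between 131 and 167 CPM in the FTO-labelled libraries, and Dkk3 lies at 333 to 342 CPM and at 135 to 140 CPM.

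Wnt4, a ligand that acts through canonical or non-canonical signalling depending on the cell, was at 9.36, 10.2 and 11.6 CPM in the Vector libraries and at 17.7, 14.3 and 25.2 CPM in the FTO-labelled libraries. The groups did not overlap, although the FTO-labelled libraries were spread widely, with a SD of 5.58 CPM against 1.15 CPM in the Vector group. Wnt4 rose 1.86-fold (log2 fold change 0.89 ± 0.17 SE, 95% interval 0.53 to 1.26, adjusted p = 0.000283, edgeR). The size rested in part on single libraries, since the log2 fold change was 0.62 without FTO replicate 3 (adjusted p = 0.000298, edgeR) and 1.06, past the study's threshold, without FTO replicate 2.

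Wnt5a, the best known non-canonical ligand, moved the other way. Its level was 21.7, 22.5 and 23.3 CPM in the Vector libraries and 16.8, 17.4 and 19.3 CPM in the FTO-labelled libraries. All 3 of the latter were below all 3 of the former, and the fall was small (log2 fold change −0.33 ± 0.0849 SE, 95% interval −0.51 to −0.15, adjusted p = 0.00311, edgeR). It was no longer called when tested against a 1.2-fold change (adjusted p = 0.164, glmTreat).

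Wnt5b, a close relative of Wnt5a, had few reads, with 22, 15 and 17 counts in the Vector libraries and 30, 17 and 41 counts in the FTO-labelled libraries. In CPM these were 1.61, 1.01 and 1.18 against 2.10, 1.28 and 2.29. The groups overlapped, because replicate 2 of the FTO-labelled libraries lay below the highest Vector library. The log2 fold change of 0.61 ± 0.297 SE did not pass the test (95% interval −0.02 to 1.25, adjusted p = 0.0831, edgeR), and passed it only when that replicate was left out (0.81, adjusted p = 0.0243).

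The other 2 ligands were at the limit of detection. Wnt2, which signals mainly through β-catenin, had 2, 6 and 2 counts in the Vector libraries and 1, 2 and 4 in the FTO-labelled libraries. For Wnt11, a non-canonical ligand of heart development, the counts were 8, 5 and 3 and then 8, 3 and 3. Pooled over libraries, the ratio of the FTO-labelled libraries to Vector was 0.663 for Wnt2 (95% interval 0.214 to 1.93, from 10 and 7 reads) and 0.829 for Wnt11 (0.375 to 1.81, from 16 and 14 reads). These intervals cover counting error only and include both a rise and a fall, so that no difference was detectable at this depth.

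Among the antagonists, Sfrp1, a secreted decoy that binds Wnt ligands, was already well expressed in the Vector group. It was at 161, 163 and 169 CPM there and at 240, 210 and 257 CPM in the FTO-labelled libraries. The groups were well apart, and Sfrp1 rose 1.44-fold (log2 fold change 0.52 ± 0.0608 SE, 95% interval 0.39 to 0.65, adjusted p = 2.01e-06, edgeR). The SD grew from 4.16 CPM in the Vector group to 23.6 CPM.

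Sfrp2 changed most of the 7 tested members. This secreted protein of the same family has been linked to both inhibition and support of Wnt signalling and to collagen processing in the heart. It had 5, 1 and 9 counts in the Vector libraries and 2054, 2216 and 2341 in the FTO-labelled libraries, or 0.366, 0.0671 and 0.623 CPM against 144, 167 and 131 CPM. The gene thus went from about the detection limit to a mean of 147 ± 18.5 CPM (SD, n = 3) in all 3 libraries. Pooled over libraries, 15 reads stood against 6611, a ratio of 418 after scaling for depth, with a counting interval of 253 to 746. The fitted log2 fold change was 8.69 ± 0.194 SE (adjusted p = 4.81e-15, edgeR), a value that depends on the prior count because the Vector level is so low, and ranged from 8.18 to 9.39 over the 14 alternative fits.

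The 250 bases before the Sfrp2 start site are given because no other member went from near the detection limit to such a level. They come from RefSeq on build GRCr8 (chr2:171387286-171387535, plus strand, written 5′ to 3′), a later build than the rn6 named in the submitters' processing notes. The capitals mark the letters ATAAAA, which resemble a TATA box and were chosen after the sequence had been seen, whose first base lies 51 bases before the start site.
Sfrp2: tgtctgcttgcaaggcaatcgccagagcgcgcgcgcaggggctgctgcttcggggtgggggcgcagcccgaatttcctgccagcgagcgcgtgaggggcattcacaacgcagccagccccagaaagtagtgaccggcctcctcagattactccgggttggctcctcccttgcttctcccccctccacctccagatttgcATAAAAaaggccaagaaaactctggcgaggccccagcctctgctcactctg
The window was 62.4% G and C, against a median of 51.2% over 33469 rat promoters of the same length. ATAAAA was found on one strand or the other in 18.6% of those promoters. A further 6 motifs were searched for on both strands and had no match in the Sfrp2 window. They were the TATA box TATAAA (in 12.9% of all promoters, and able to overlap ATAAAA), the GC box GGGCGG (30.5%), the TCF/LEF motif CTTTGA (13.9%), the hypoxia-response core ACGTG (16.6%), the AP-1 motif TGANTCA (6.34%) and the NF-κB motif GGANTTTCC (1.08%). A single full-length RefSeq entry was found for 5 of the 10 members, namely Wnt2, Wnt4, Wnt5a, Wnt11 and Sfrp2. Members with no such entry or with more than 1 were left out. Among them the Wnt4 window was 86.4% G and C and held 9 matches to GGGCGG or its reverse complement CCGCCC. Some of these matches overlapped. The Wnt2 window held 1 copy of GGGCGG, and the Wnt11 window held none of the motifs. In the Wnt5a window the match was TTTTAT, which reads ATAAAA on the opposite strand, with its first base 199 bases before the start.

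Sfrp4, the last of the 3 members from this family, was at 4.02, 5.23 and 4.16 CPM in the Vector libraries. In the FTO-labelled libraries it was at 3.86, 3.32 and 4.58 CPM. The groups overlapped and the difference did not pass the test (log2 fold change −0.18 ± 0.182 SE, adjusted p = 0.407, edgeR). Its 95% interval, −0.57 to 0.21, left room for a modest fall or a small rise. The 3 secreted Frizzled-related members therefore had 3 different outcomes, a rise from near absence, a rise of less than the study's threshold and no detected difference. Frzb, a further gene of the family that is not a member, fell (log2 fold change −0.92).

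Dkk3 was the most clearly lowered member. Dkk3, a secreted glycoprotein that does not share the LRP6 binding of the classical Dickkopf proteins, was at 342, 333 and 342 CPM in the Vector libraries and at 135, 135 and 140 CPM in the FTO-labelled libraries. Both groups were tight, with SDs of 5.55 and 2.85 CPM, and lay far apart. The gene was 2.49-fold lower (log2 fold change −1.31 ± 0.0412 SE, 95% interval −1.40 to −1.23, adjusted p = 2.83e-13, edgeR).

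Dkk2, an LRP5/LRP6 ligand that blocks or weakly activates canonical signalling, was scarce in every library. It had 5, 8 and 9 counts in the Vector libraries and 1, 0 and 1 in the FTO-labelled libraries. Every Vector library was above 3 counts and every library labelled FTO was below. The mean Vector level of Dkk2 was 2.52-fold the level that a floor of 3 counts would give in the FTO-labelled libraries. That figure carries no error on the Vector counts. The pooled ratio, from 22 and 2 reads, was 0.0861 with a counting interval of 0.00982 to 0.35. Without the filter on low counts the fall of Dkk2 passed the test (adjusted p = 0.00197, edgeR).

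**Figure D2:**
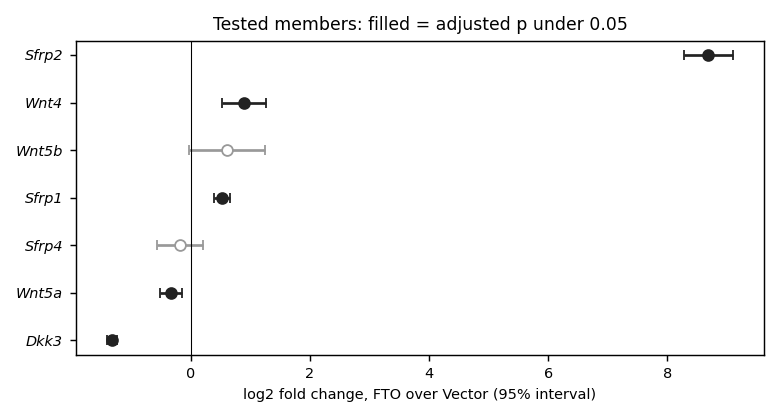
Fitted log2 fold change, FTO-labelled libraries over Vector, of the 7 tested members on the horizontal axis, with bars for the 95% interval; filled points have an adjusted p-value under 0.05. Sfrp2 stands at 8.69, the other 6 lie between −1.31 and 0.89, and the intervals of Wnt5b and Sfrp4 cross 0.

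Within the FTO-labelled libraries, the members did not vary alike. Replicate 3 was the highest of the 3 for Wnt4, Wnt5a, Wnt5b, Sfrp1, Sfrp4 and Dkk3 and the lowest for Sfrp2. Replicate 2 was the lowest of the 3 for Wnt4, Wnt5b, Sfrp1, Sfrp4 and, by a narrow margin, Dkk3 and the highest for Sfrp2.

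The makeup of the secreted antagonist reads differed between the groups, with no overlap in the shares of Dkk3, Sfrp1 and Sfrp2. The 5 antagonists together took 508, 502 and 517 CPM in the Vector libraries and 523, 516 and 532 CPM in the FTO-labelled libraries. The sums were 509 ± 7.47 and 524 ± 8.20 CPM (SD, n = 3), a log2 difference of 0.04, and the groups overlapped (exact two-sided permutation test over the libraries, p = 0.2). An exact permutation test of 3 against 3 libraries cannot go below p = 0.1, so that neither this p-value nor those of the next sums and ratios could pass 0.05, and they do not show that the groups were alike. The sum of the 5 joined opposite movements. The 3 secreted Frizzled-related members summed to 165 to 174 CPM in the Vector libraries and to 381 to 392 CPM in the FTO-labelled libraries. The 2 Dickkopf members summed to 333 to 343 CPM and to 135 to 140 CPM. Within the sum of the 5, Dkk3 gave 66.3% to 67.4% of the antagonist reads in Vector libraries and 25.8% to 26.2% in the FTO-labelled libraries. Sfrp1 went from between 31.6% and 32.7% to between 40.8% and 48.3%, and Sfrp2 from at most 0.121% to between 24.6% and 32.5%. Sfrp4 and Dkk2 stayed at or below 1.04% in every library. These are shares of reads and are not corrected for transcript length, which was not analysed here.

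For the 5 ligands the sums were 33.4, 34.5 and 36.5 CPM in the Vector libraries and 37.2, 33.5 and 47.2 CPM in the FTO-labelled libraries. They overlapped, with a log2 difference of 0.16 (exact two-sided permutation test, p = 0.4). Wnt5a gave 63.9% to 65.4% of the ligand reads in Vector libraries and 40.9% to 52.1% in the FTO-labelled libraries, whereas Wnt4 went from between 28% and 31.9% to between 42.9% and 53.4%. Wnt4 thus had more reads than Wnt5a in FTO replicates 1 and 3 and fewer in replicate 2 and in every Vector library. Wnt5b gave 2.92% to 5.65% in all 6 libraries, and Wnt2 and Wnt11 at most 1.75%.

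The antagonist reads outnumbered the ligand reads by 15.2, 14.5 and 14.2 to 1 in the Vector libraries and by 14.0, 15.4 and 11.3 to 1 in the FTO-labelled libraries. The ratios overlapped, at 14.6 ± 0.521 and 13.6 ± 2.12 (SD, n = 3), with a log2 difference of −0.12 (exact two-sided permutation test, p = 0.6). When each gene was instead given equal weight, as the mean log2 CPM of the antagonists minus that of the ligands, the difference was 1.02 in the opposite direction, with the smallest p the design allows (exact two-sided permutation test, p = 0.1). That version weights Sfrp2 and the scarce genes as much as the abundant ones. Both versions count Dkk3 and Sfrp2 as antagonists, and neither was computed without them.

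**Figure D3:**
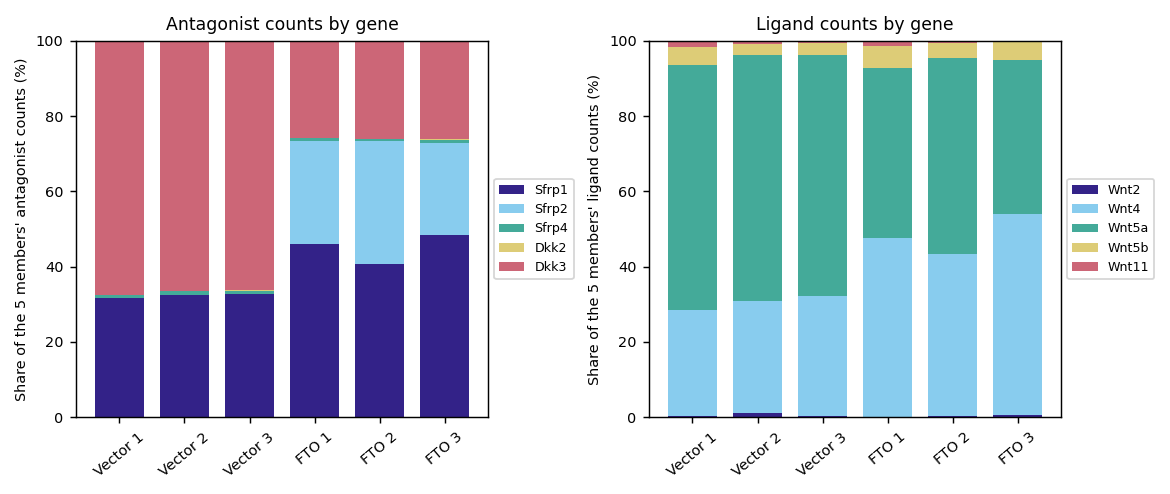
Share of each library's antagonist reads and ligand reads, in percent, given by each member, with 1 stacked bar a library. Dkk3 gives 66.3% to 67.4% of antagonist reads in the Vector libraries and 25.8% to 26.2% in the FTO-labelled libraries, where Sfrp2 gives 24.6% to 32.5%.

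By the root mean square difference of centred log2 CPM over the 6 libraries, among 10041 genes with a mean of at least 100 counts, the genes whose pattern was nearest to that of Sfrp2 were Mx1 (0.278), Cxcl3 (0.391) and Apln (0.393). Mx1, an interferon-induced antiviral gene, averaged 0.894 ± 0.426 CPM in Vector and 346 ± 25.5 CPM in FTO-labelled libraries (SD, n = 3). Cxcl3 encodes a chemokine, and Apln a peptide hormone of the heart and vessels that had at most 3 counts in any Vector library. The genes nearest to Dkk3 were Svil (0.0121), an actin-binding protein gene, Serpinh1 (0.0264), which encodes the collagen chaperone HSP47, and Tgfb1i1 (0.0305), which encodes a focal adhesion protein. Svil, for example, was at 119 ± 1.38 and 48.1 ± 0.453 CPM. These distances describe 6 libraries in 2 groups, which any genes of like fold change would share.

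The summed levels of marker genes of other cell types differed between the groups, although within several lists the genes went both ways. The counts of each marker list stand beside 33.2% of all genes tested called higher and 32.8% called lower. Macrophage markers summed to 1487 to 1546 CPM in the Vector libraries and to 189 to 218 CPM in the FTO-labelled libraries, with 7 of 8 lower and Adgre1 higher (6.81 ± 1.52 and 31.7 ± 3.64 CPM). Most of the Vector sum was Lyz2, at 1117 ± 22.8 and 97.6 ± 5.80 CPM. Mural markers went from between 1034 and 1059 CPM to between 291 and 325 CPM (4 of 6 tested lower, and Kcnj8 and Abcc9 higher), and cardiomyocyte markers from between 1668 and 1700 CPM to between 2588 and 2666 CPM (6 of 7 higher, 1 lower). Epicardial markers were at 55.6 to 61.7 CPM and at 201 to 218 CPM (4 of 6 higher, 1 lower, with Msln alone at 2.83 ± 0.678 and 87.1 ± 5.64 CPM). Endothelial markers were at 24.5 to 25.0 CPM and at 52.9 to 55.8 CPM (4 of 5 tested higher). Epithelial markers were at 2.08 to 2.42 CPM and at 8.07 to 11.8 CPM (2 of 2 tested higher). Among these, Krt18 alone was at 0.393 ± 0.0964 and 7.63 ± 1.26 CPM. Of the untested epithelial markers, Cdh1 had 7, 5 and 7 counts in the Vector libraries and 1, 1 and 5 in the FTO-labelled libraries. Epcam had at most 2 counts in any library. Schwann cell markers were at 7.24 to 9.19 CPM and at 5.03 to 5.75 CPM (2 of 3 tested lower). The 8 interferon-response genes all rose, from a sum of 84.9 to 88.1 CPM to a sum of 3239 to 3550 CPM. Most of the Vector sum was Ifit2, at 76.6 ± 2.28 and 252 ± 11.4 CPM. The fibroblast markers were present in every library and summed to 36849 to 37674 CPM in the Vector libraries and to 18488 to 19609 CPM in the FTO-labelled libraries. Of these 8, 4 were higher, among them Dcn (47.0 ± 1.57 and 5611 ± 221 CPM) and Pdgfra (173 ± 5.02 and 976 ± 91.0 CPM), and 4 lower, among them Col1a1 (25809 ± 337 and 8268 ± 377 CPM). No marker list had a gene at 0 in every library of either group. The part of these differences in the values of the 10 genes was not tested.

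The other genes of the pathway were grouped in lists by role. Of 87 such genes in the files, 56 were tested and 44 passed (78.6%, beside 65.9% of all genes tested), 14 higher and 30 lower. Of all genes tested, 33.2% were called higher and 32.8% lower, and the counts of each list below stand beside these shares. Their median log2 fold change was −0.29, and that of all genes tested was 0.00. Of the 56, 12 passed the study's threshold, which 19.6% of all genes tested passed.

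None of the 14 other Wnt ligands had enough counts to be tested. Wnt1, Wnt3, Wnt3a, Wnt7a, Wnt8b and Wnt9b had no read in any library, and all 14 together summed to 0.878 to 2.15 CPM in the Vector libraries and to 1.13 to 2.17 CPM in the FTO-labelled libraries. Wnt4, Wnt5a and Wnt5b were therefore the only Wnt ligands tested. Of 10 other secreted antagonists, 3 were tested and 1 passed. Frzb, the gene of a further secreted Frizzled-related protein, fell from 15.6 ± 0.965 to 8.19 ± 0.477 CPM (log2 fold change −0.92, adjusted p = 1.87e-06, edgeR). Wif1, which binds Wnt ligands, did not pass (−0.46, adjusted p = 0.122), nor did Dkk4 (0.05), and Dkk1 and Notum had no read in any library. The genes that put ligands out of the cell moved in opposite directions. Wls, the carrier of Wnt proteins to the cell surface, was at 499, 491 and 492 CPM in the Vector libraries and at 303, 273 and 304 CPM in the FTO-labelled libraries (log2 fold change −0.75, adjusted p = 1.14e-09, edgeR), whereas Porcn, the acyltransferase that lipidates them, rose by 0.46 on the log2 scale (adjusted p = 0.00362).

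Of 7 tested Frizzled genes, 2 rose and 4 fell, beside 33.2% of all genes tested called higher and 32.8% called lower. Fzd1 was at 282, 283 and 282 CPM in the Vector libraries and at 680, 671 and 660 CPM in the FTO-labelled libraries (log2 fold change 1.25, adjusted p = 2.01e-13, edgeR), and Fzd6 also rose (1.14). Fzd2 was at 89.8, 90.6 and 89.5 CPM and then at 29.0, 31.1 and 27.0 CPM (−1.64, adjusted p = 2.61e-12), and Fzd4 (−1.06) and Fzd5 (−0.88) fell as well. Each of these 5 receptors, named because they were called, had groups that did not overlap, as had 70.3% of all genes tested. Among 8 tested co-receptor genes, 4 rose and 3 fell, beside the same shares of all genes tested. Ror1, a receptor for Wnt5a, rose from 22.2 ± 0.899 to 61.9 ± 1.14 CPM (1.48, adjusted p = 1.3e-11, edgeR) and its relative Ror2 by 0.48, as did Lrp4. In contrast, the canonical co-receptor genes Lrp6 (−0.61) and Lrp5 (−0.46) fell, as did Kremen1, a Dickkopf receptor (−0.28), whose call was lost without Vector replicate 3 (adjusted p = 0.11).

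R-spondins strengthen Wnt signalling by sparing Frizzled receptors from turnover. Rspo3 was at 2.05, 1.14 and 1.73 CPM in the Vector libraries and at 14.2, 15.8 and 16.4 CPM in the FTO-labelled libraries, a clear separation (log2 fold change 3.24, adjusted p = 1.65e-10, edgeR). Of the 4 tested genes of this list Rspo4 also rose (0.84, adjusted p = 0.0289), a call lost without FTO replicate 1 (adjusted p = 0.152) and without Vector replicates 1 and 3 (0.0751 and 0.109), while Lgr4, an R-spondin receptor, fell (−0.36). Rspo2, singled out after its values were seen, had 10, 9 and 9 counts in the Vector libraries and 1, 0 and 2 in the FTO-labelled libraries and was not tested.

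Inside the cell, Ctnnb1, which encodes β-catenin, was at 399 ± 5.78 and 397 ± 13.6 CPM (log2 fold change −0.01, adjusted p = 0.869, edgeR). Of 9 tested genes of Dishevelled and the destruction complex, 2 rose and 4 fell, beside 33.2% and 32.8% of all genes tested. Those that fell included Dvl3 (−0.55), Dvl1 (−0.40) and Apc (−0.31). Ctnnbip1 (0.30) and Dvl2 (0.16) rose, with calls that were lost without Vector replicate 3 or FTO replicate 1 (adjusted p = 0.0826 and 0.0528) and without Vector replicates 1 and 2 or FTO replicates 1 and 2 (adjusted p from 0.0581 to 0.153). Of 7 tested TCF/LEF factors and co-activators, 5 fell, led by Tcf7 (−1.79, from 4.06 ± 1.03 to 1.17 ± 0.0948 CPM), Pygo1 (−0.67) and Tcf7l2 (−0.57), and Bcl9l rose (0.21), a call lost without Vector replicate 1 (adjusted p = 0.0609).

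Genes often used as readouts of β-catenin did not move together. Of 8 tested, 5 fell and 2 rose, beside 32.8% and 33.2% of all genes tested. Nkd2, a feedback inhibitor that binds Dishevelled, was at 96.8, 91.0 and 93.3 CPM in the Vector libraries and at 18.7, 15.1 and 15.1 CPM in the FTO-labelled libraries (log2 fold change −2.53, adjusted p = 1.79e-13, edgeR), and Tcf7 and Bambi (−0.95) fell. Ccnd1 fell from 390 ± 5.20 to 207 ± 16.4 CPM (−0.91, adjusted p = 4.32e-10, edgeR), and Wisp1 also fell (−0.42). Axin2, the most widely used target gene, was at 1.17, 1.68 and 2.22 CPM and then at 2.31, 2.64 and 2.79 CPM. Its groups did not overlap, but the rise of 0.61 on the log2 scale barely passed (adjusted p = 0.0442, edgeR) and was not called when any 1 library other than Vector replicate 3 was left out (adjusted p from 0.0566 to 0.181). Myc rose by 0.30. Neither rise was called when tested against a 1.2-fold change (adjusted p = 0.107 for Axin2 and 0.176 for Myc, glmTreat). Of 9 tested planar cell polarity genes, through which non-canonical ligands such as Wnt5a act, 7 fell and none rose, beside 32.8% of all genes tested that were called lower and 33.2% called higher. Prickle1 fell from 226 ± 9.56 to 57.7 ± 5.94 CPM (−1.97, adjusted p = 4.56e-13, edgeR) and Daam1 from 77.2 ± 3.98 to 36.5 ± 1.54 CPM (−1.08). The call for Celsr2 (−1.09, adjusted p = 0.0333) was lost without Vector replicate 1 or 2 or FTO replicate 2 or 3 (adjusted p from 0.0775 to 0.118).

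**Figure D4:**
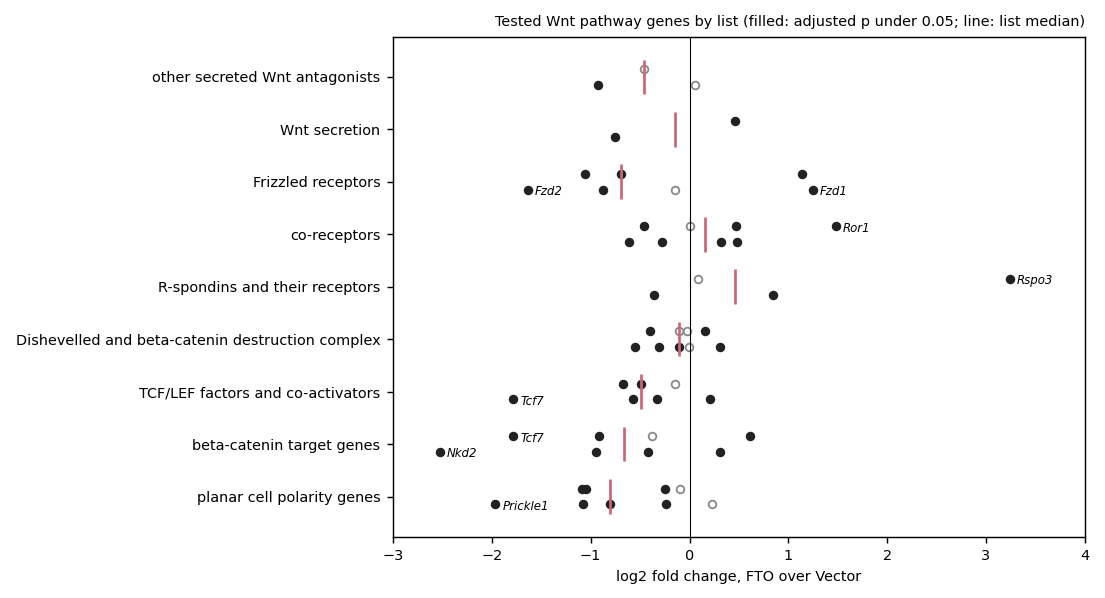
Log2 fold change, FTO-labelled libraries over Vector, of the tested genes of each pathway list on the horizontal axis; filled points have an adjusted p-value under 0.05, short vertical lines are list medians, and genes beyond 1.2 in either direction are named. Rspo3 lies farthest to the right at 3.24 and Nkd2 farthest to the left at −2.53.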

How the data were processed

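RNA-seq libraries of NRCFs (3 Vector, 3 labelled FTO, grouped by genotype label) were analysed from the raw counts per gene symbol that the authors deposited. The submitters' processing notes name Trimmomatic and the rn6 build; the aligner, counter, annotation and use of strand are not given in the sources used here, so reads of overlapping or antisense genes cannot be told apart. Genes were filtered with filterByExpr (minimum count of 10), scaled by TMM (factors 0.995 to 1.005) and tested with the two-sided quasi-likelihood test of edgeR 4.0.16 in R 4.3.3, with Benjamini-Hochberg adjustment over 12941 genes. Within-group library pairs differed by more than sampling noise, and more so in the FTO-labelled group. The chi-square per degree of freedom was 1.56 to 2.12 for Vector pairs and 3.26 to 8.02 for FTO-labelled pairs. The fit assumed the same dispersion in both groups. The study's threshold was applied with unadjusted p-values. Fold changes are libraries labelled FTO over Vector. Intervals of pooled ratios cover counting error only, and the floor of 3 counts is a set value without an interval.

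The members, lists and tests were chosen with earlier results of these data known. Genes named by rule were the 10 members, Fto and, per list, up to 3 called genes in each direction with a mean of at least 10 counts. The rule also named the 3 genes nearest to the members with the largest rise and fall. Genes named as not passing or not detected, marker and interferon-response genes, Ccnd1 and Wisp1 were picked after their values were seen. Axin1, Fzd10 and Znrf3 are not analysed here. Alternatives were DESeq2 1.42.0, limma-voom (limma 3.58.1), glmTreat against 1.2-fold, other scalings and filters, a replicate block and leaving out each library.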

Additional observations from a re-analysis of the deposited data

How the results depend on the processing

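The 7 tested members kept their direction in all 14 alternative fits. Testing against a 1.2-fold change (glmTreat) left 5668 genes called in place of 8531, 29 pathway genes in place of 44 and 1 member called lower in place of 2, since Wnt5a was lost. Giving each gene equal weight took the log2 difference in the antagonist to ligand ratio from −0.12 to 1.02. Leaving out 1 library at a time gave 5 to 6 called members, 7902 to 8719 called genes, 38 to 45 pathway genes and a ratio difference between −0.22 (FTO replicate 2 left out) and 0.01 (FTO replicate 3 left out). Over 47 genes named by rule and 14 fits, 37 of 658 values lost the call, 1 gained it and 0 changed sign. Besides Wnt5a, glmTreat lost the calls of Kremen1, Rspo4, Lgr4, Ctnnbip1, Dvl2, Apc, Bcl9l, Axin2, Myc and Celsr2, and DESeq2 those of Rspo4, Dvl2, Axin2 and Celsr2. Without the filter on low counts, 6 members and 9009 of 17166 genes passed, Dkk2 being added and Dvl2 losing its call (adjusted p = 0.0724). DESeq2 called 7795 genes.

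The deviations of same-numbered libraries correlated across genes at 0.005, −0.114 and 0.063, and those of unlike-numbered libraries at −0.173 to 0.164. Deviations were taken from the mean of each group, so these correlations are not independent and cannot show whether the libraries were paired. With the replicate number as a block, 5 members, 43 pathway genes and 8399 genes were called. Among the genes named by rule, Dvl2 alone lost its call (adjusted p = 0.067, edgeR).

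Depth limits Wnt2, Wnt11 and Dkk2, which had at most 9 counts in any library.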
